A study of Mus musculus with 6 samples.

Results

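The Notch genes described are the 4 receptors Notch1 to Notch4, the 4 ligands Jag1, Jag2, Dll1 and Dll4, and the 2 target genes Hes1 and Hey1. They were taken from the table of all genes by their gene symbols, and all 10 were found once among its 53342 genes. RNA sequencing had been carried out on dental pulp, the soft tissue inside the tooth, of C57BL/6 mice aged 3 months. Pulp of 3 wild-type (WT) mice, numbered 2, 4 and 5, was compared with pulp of 3 mice numbered 1, 2 and 6 that were homozygous for a deficiency of matrix metalloproteinase-13, a collagen-degrading enzyme (MMP13KO, here Mmp13-/-). The paper's methods describe males, incisors and TRIzol extraction, whereas the labels give molars and a column kit, and only the WT titles carry the word molar, so a difference in tooth type cannot be told apart from the genotype.

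Notch receptors span the cell membrane and are switched on by ligands of the Jagged and Delta-like families on a neighbouring cell. Ligand binding lets proteases cut the receptor, and the freed inner part enters the nucleus, joins the DNA-binding protein RBPJ and turns on targets such as Hes1 and Hey1, which are themselves repressors of transcription. In teeth the pathway is known from the dental epithelium, where Notch1 marks the layer next to the enamel-forming ameloblasts and Jag2 is needed for normal enamel, and from pulp vessels, since Notch1, Notch4 and Dll4 mark endothelium and Notch3 marks the mural cells around it.

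The Mmp13 transcript checked the genotype, with 30.2 to 39.2 CPM (counts scaled to a common library size with TMM factors) in WT and 0.323 to 2.34 CPM in Mmp13-/-. Libraries held 28442936 to 29980236 estimated counts in WT and 21561420 to 26547121 in Mmp13-/-, and the lowest estimated count of any Notch gene was 121 (Dll4, Mmp13-/- sample 6). Library Mmp13-/- 6 stood apart, with 4.90 background counts per kilobase over odorant and vomeronasal receptor genes, which are used mainly by sensory neurons, against 1.63 and 1.88 in the other Mmp13-/- libraries and 0.137 to 0.255 in WT. Calls of the Notch genes, pathway and marker lists are therefore also given without it. The marker of odontoblasts, the dentin-forming cells that line the pulp, was present in all libraries (Dspp, 524 to 1646 CPM in WT and 1571 to 2422 CPM in Mmp13-/-). Enamel epithelium (Ambn, 778 to 2110 CPM in WT) and skeletal muscle (Myh1, 15511 to 16507 CPM in WT) were present as well, so the libraries hold RNA of those tissues too.

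The log2 fold change of all tested genes ran with GC content, read from the exons of each gene's longest transcript. Spearman's rho was −0.51 over 24492 genes, which share the same 6 libraries. The Notch genes are rich in GC. Their longest transcripts held 48.8% GC in Jag1 to 61.9% in Jag2, with a median of 55.4%, against a median of 49.1% over all tested genes. Changes of the Notch genes are therefore given on the deposited counts and again after a correction of each library for GC content, with adjusted p-values from edgeR's quasi-likelihood test over all 24534 genes tested. Over all tested genes the median was 0.10 before this correction and 0.33 after it. The corrected median was 0.20 without Mmp13-/- 6 and 0.17 with background subtraction as well as GC correction. The correction was fitted on genes with a mean log2 CPM above 3, so these medians also cover low-count genes outside that fit. Corrected values are therefore given beside the median, which is not a zero point for them.

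The starts of 3 receptors and 1 ligand are shown because they carry very different numbers of 1 promoter element. RefSeq (GRCm38.p6) entries were matched for 8 of the 10 genes, all but Hes1 and Hey1. There were 9 entries in all, and the 250 bases before the RefSeq start are printed. RefSeq and GENCODE starts differ, and the windows of Notch2 and Notch4 reach 11 and 27 bases into the GENCODE gene, while those of Notch3 and Dll4 lie outside it. Capitals mark the GC box, GGGCGG, read on both strands.
Notch2 promoter, chr3:98013288-98013537, plus strand: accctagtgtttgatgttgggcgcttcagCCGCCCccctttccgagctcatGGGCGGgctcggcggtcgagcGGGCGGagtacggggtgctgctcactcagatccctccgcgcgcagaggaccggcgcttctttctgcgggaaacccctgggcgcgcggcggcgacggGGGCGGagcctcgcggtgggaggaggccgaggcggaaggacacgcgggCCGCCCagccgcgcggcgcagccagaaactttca
Notch3 promoter, chr17:32166891-32167140, minus strand: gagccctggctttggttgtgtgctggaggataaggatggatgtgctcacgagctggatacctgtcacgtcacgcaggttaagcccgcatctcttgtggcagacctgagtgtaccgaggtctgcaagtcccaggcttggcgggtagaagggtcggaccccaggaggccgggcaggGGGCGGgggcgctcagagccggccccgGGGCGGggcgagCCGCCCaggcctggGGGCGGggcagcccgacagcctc
Notch4 promoter, chr17:34564045-34564294, plus strand: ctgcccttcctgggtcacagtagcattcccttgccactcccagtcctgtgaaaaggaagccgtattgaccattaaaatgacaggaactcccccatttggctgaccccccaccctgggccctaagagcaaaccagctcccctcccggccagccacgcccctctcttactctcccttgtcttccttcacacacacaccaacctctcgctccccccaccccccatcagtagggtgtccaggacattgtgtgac
Dll4 promoter, chr2:119325534-119325783, plus strand: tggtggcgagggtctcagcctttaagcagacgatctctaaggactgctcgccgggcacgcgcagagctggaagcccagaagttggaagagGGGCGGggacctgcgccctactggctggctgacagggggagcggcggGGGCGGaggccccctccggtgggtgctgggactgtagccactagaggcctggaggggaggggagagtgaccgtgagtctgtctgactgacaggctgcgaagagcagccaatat
The box occurred 5 times in Jag2, 5 times in Notch1, 5 times in Notch2, 4 times in Notch3 and 2 times in Dll4, and was not matched in Notch4, Jag1 or either entry of Dll1. Of 32851 promoter entries of this length, 32.7% held at least 1 box. The windows of Notch1 and Jag2 and 1 of the 2 Dll1 windows lie wholly inside the GENCODE gene, and that of Jag1 reaches 124 bases into it. The Jag2 window was 87.2% GC, higher than 99.96% of all windows, and the windows of the other genes held 56.0% to 72.0% against a median of 52.4%. The core of the RBPJ site, TGGGAA, was read on both strands as well and was not matched in these 9 windows, while 21.6% of all windows held it. The targets Hes1 and Hey1 have no window here, so their promoters were not read for it.

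All 10 genes had a log2 fold change below 0 in Mmp13-/- pulp on the deposited counts, as had 46.1% of all tested genes. Changes over 2-fold were called for 5 of them, Notch1, Notch3, Notch4, Jag2 and Hes1, where 9.68% of all tested genes were called lower at that size. At any fold 8 passed the adjusted p, the same 5 with Jag1, Dll1 and Dll4, where 24.3% of all tested genes passed in that direction, and none passed as higher (27.3% of all tested genes). The median log2 fold change of the 10 was −0.86, against 0.10 over all tested genes. The Mmp13-/- samples lay below every WT sample in 9 of the 10, all but Hey1, as they did in 29.1% of all tested genes, and above every WT sample in none (31.8%). In a bulk sample, fewer cells that carry a gene and less of its RNA per cell cannot be told apart. After GC correction 2 of the 10 passed, Hes1 as lower (9.33% of all tested genes passed in that direction) and Notch2 as higher (26.7%). None was over 2-fold, where 2.2% of all tested genes were called lower, and the median was 0.03. Without Mmp13-/- 6, 4 were lower over 2-fold (9.32% of all tested genes), Notch1 being at −0.98, and 8 at any fold (23.8%). After GC correction without that library Hes1 passed as lower (10.1%) and Notch2 as higher (24.5%), and none of the others passed. Without it and before the correction, the log2 fold changes of Notch3, Jag2, Hes1, Dll1 and Dll4 were −1.09, −1.44, −1.12, −0.80 and −0.61, all past the adjusted p, and those of Notch2 and Hey1 were −0.29 and 0.07, which did not pass.

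**Figure D1:**
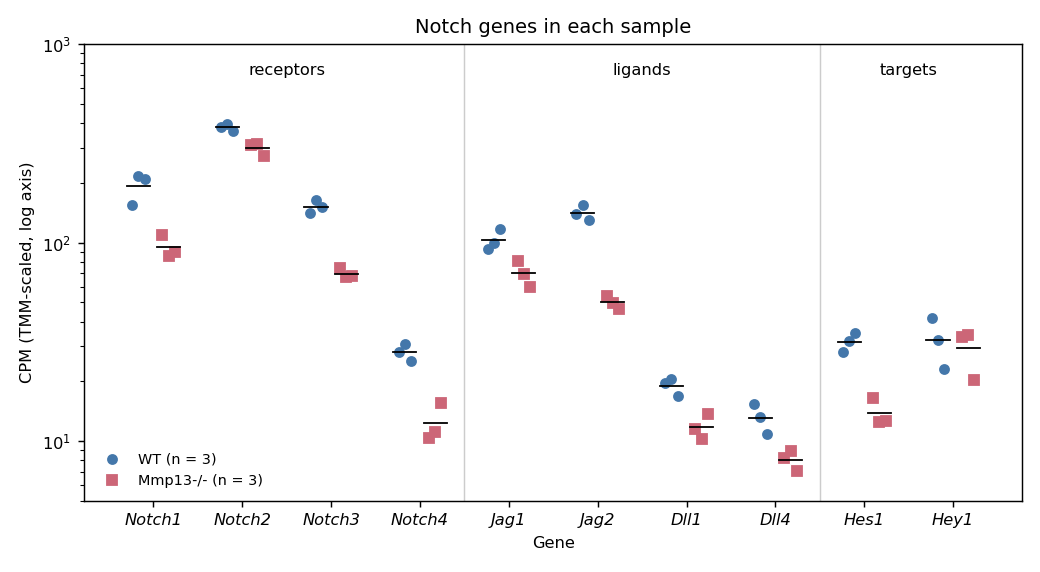
CPM of the 10 Notch genes on a log axis, with 1 point per sample (circles WT, squares Mmp13-/-, n = 3 each) and a black line at each group's mean. The groups are apart in every gene except Hey1, and the gap is widest in Jag2, whose means were 141 and 50.1 CPM.

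Among the receptors, Notch2 was the most abundant, and on the deposited counts it moved least, while after GC correction it was the 1 receptor that passed. Notch2 (ENSMUSG00000027878, chr3:98013527-98150361, plus strand), which takes part in bone cell and vessel development, stood at 381, 397 and 365 CPM in WT samples 2, 4 and 5 and at 310, 312 and 273 CPM in Mmp13-/- samples 1, 2 and 6. The groups did not overlap, but the means of 381 ± 16.1 and 298 ± 22.2 CPM (SD, n = 3) differed by −0.35 on the log2 scale (standard error 0.16, adjusted p = 0.0962), which did not pass. After GC correction it was 0.35 (standard error 0.11, adjusted p = 0.0314), which passed as higher and lay at the corrected median of all genes. Without Mmp13-/- 6 the corrected value was 0.31 (adjusted p = 0.0493), where the median of all tested genes was 0.20.

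Notch1 (ENSMUSG00000026923, chr2:26457903-26516663, minus strand), the receptor of endothelium and of the enamel organ, was at 154, 215 and 208 CPM in WT and 109, 85.9 and 89.4 CPM in Mmp13-/-. WT sample 2 was the lowest WT value and was still above all Mmp13-/- samples. The means were 193 ± 33.2 and 94.7 ± 12.3 CPM (SD, n = 3), and the level fell by 1.02 on the log2 scale (standard error 0.18, adjusted p = 0.00134). Notch3 (ENSMUSG00000038146, chr17:32120820-32166852, minus strand), needed in the smooth muscle of small arteries, was at 140, 163 and 151 CPM in WT and 74.8, 66.8 and 67.8 CPM in Mmp13-/-. Samples within each genotype lay close together, and the fall of 1.12 on the log2 scale (standard error 0.14, adjusted p = 0.000259) was far larger than that spread.

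Notch4 (ENSMUSG00000015468, chr17:34564268-34588503, plus strand), largely an endothelial receptor, was at 28.0, 30.8 and 25.2 CPM in WT and 10.3, 11.1 and 15.6 CPM in Mmp13-/-. It fell by 1.19 on the log2 scale (standard error 0.18, adjusted p = 0.000584), and by 1.39 (adjusted p = 0.000253) without Mmp13-/- 6, which was its highest Mmp13-/- sample. The background rate of that library accounts for up to 14.7% of its Notch4 count, against at most 4.52% for the other receptors and 0.253% in WT. After GC correction the log2 fold changes of Notch1, Notch3 and Notch4 were −0.04, 0.02 and 0.05 (adjusted p = 0.828, 0.865 and 0.883), so none of them passed after it. All 3 lay below 0.33, the corrected median of all tested genes, low-count genes included.

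Among the ligands, all 4 were lower and Jag2 moved furthest of the 10 genes. Jag2 (ENSMUSG00000002799, chr12:112907819-112929776, minus strand), a ligand of oral and dental epithelium, was at 139, 154 and 130 CPM in WT and 54.0, 49.8 and 46.4 CPM in Mmp13-/-. The lowest WT sample was above the highest Mmp13-/- sample by more than either group's range. It fell by 1.49 on the log2 scale (standard error 0.15, adjusted p = 9.67e-05), which is 2.81-fold with a 95% interval from 2.24 to 3.53. After GC correction its log2 fold change was −0.25 (95% interval −0.47 to −0.03, adjusted p = 0.0702), which did not pass.

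Jag1 (ENSMUSG00000027276, chr2:137081456-137116644, minus strand), a ligand of vessels, bone cells and epithelium, was at 92.3, 99.0 and 117 CPM in WT and 80.8, 69.4 and 59.9 CPM in Mmp13-/-. The gap between the groups, from 80.8 to 92.3 CPM, was narrow. It fell by 0.55 on the log2 scale (standard error 0.16, adjusted p = 0.0179), and its longest transcript is the poorest in GC of the 10. The call was lost without WT sample 5, its highest sample (log2 fold change −0.52, adjusted p = 0.0694), and after GC correction (−0.27, adjusted p = 0.0955).

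Both Delta-like ligands were rarer. Dll1 (ENSMUSG00000014773, chr17:15367354-15376872, minus strand) was at 19.5, 20.6 and 16.8 CPM in WT and 11.5, 10.3 and 13.6 CPM in Mmp13-/-, and fell by 0.69 on the log2 scale (standard error 0.16, adjusted p = 0.0054). Dll4 (ENSMUSG00000027314, chr2:119325784-119335962, plus strand), the ligand of sprouting endothelium, was at 15.3, 13.2 and 10.8 CPM in WT and 8.22, 8.95 and 7.03 CPM in Mmp13-/-, and fell by 0.70 (standard error 0.18, adjusted p = 0.00906). Neither group pair overlapped, and WT sample 5 and Mmp13-/- sample 6 were the lowest Dll4 samples of their groups. Corrected for GC content, Dll1 stood at 0.13 and Dll4 at 0.17 on the log2 scale (adjusted p = 0.628 and 0.479).

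The targets parted. Hes1 (ENSMUSG00000022528, chr16:30064384-30067796, plus strand), the repressor that answers Notch in many tissues, was at 27.9, 31.9 and 34.9 CPM in WT and 16.5, 12.4 and 12.7 CPM in Mmp13-/-. The groups were wide apart, and it fell by 1.19 on the log2 scale (standard error 0.16, adjusted p = 0.000355), or 2.27-fold with a 95% interval from 1.77 to 2.93. After GC correction it fell by 0.73 (standard error 0.14, adjusted p = 0.00578), or 1.66-fold with an interval from 1.33 to 2.07, and by 0.78 (adjusted p = 0.00859) without Mmp13-/- 6. With GC content and background both corrected, its level was 25.6, 28.4 and 30.9 CPM in WT and 17.3, 13.0 and 15.0 CPM in Mmp13-/-, so the groups stayed apart. By that measure the Mmp13-/- samples of Notch3, Jag1 and Jag2 also lay below every WT sample, as in 26.7% of all genes tested so, and those of Notch2 lay above every WT sample (23.9%). The measure keeps the library scaling of the uncorrected counts, whereas the fit with both corrections scales the libraries anew. That fit put the log2 fold change of Notch3 at 0.027, of Jag1 and Jag2 at −0.26 each and of Notch2 at 0.37. The separation of Notch3 by level is therefore not read as a fall. Hes1 was the 1 gene of the 10 that passed the adjusted p as lower both before and after GC correction, and no other annotated gene overlaps it.

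Hey1 (ENSMUSG00000040289, chr3:8663359-8667256, minus strand), a target in vessels and bone-forming cells, was at 41.8, 32.2 and 23.0 CPM in WT and 33.4, 34.3 and 20.4 CPM in Mmp13-/-. The groups overlapped, the range within WT was wide, and the change of −0.13 on the log2 scale (standard error 0.25, adjusted p = 0.673) did not pass. Its 95% interval ran from −0.69 to 0.42, and after GC correction it was 0.45 (interval −0.07 to 0.97, adjusted p = 0.151). Under the other scalings of the libraries its log2 fold change lay between −0.12 and 0.05, whereas those of the other 9 genes stayed below 0.

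**Figure D2:**
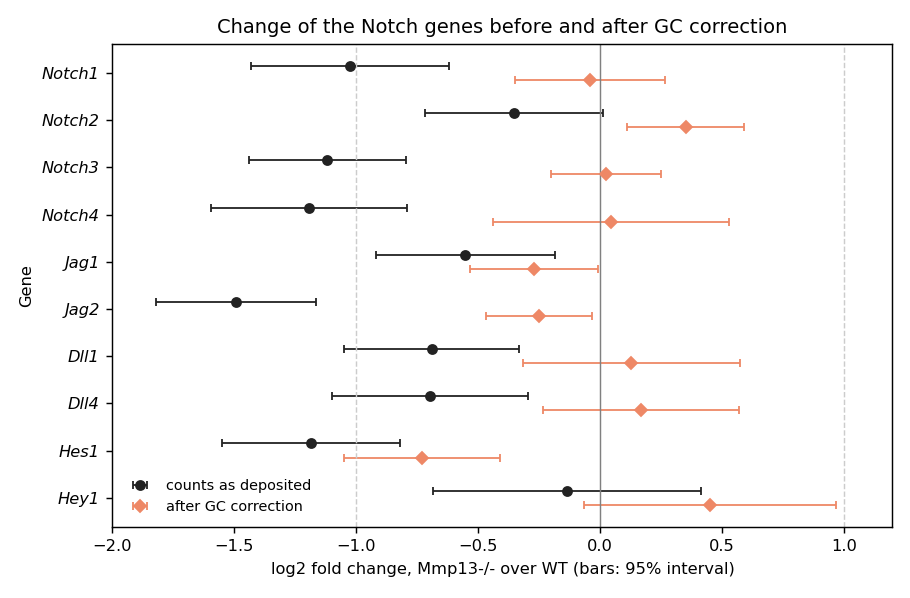
Log2 fold change of each Notch gene, Mmp13-/- over WT, with its 95% interval, on the deposited counts (black circles) and after GC correction (orange diamonds), with dashed lines at 2-fold. On the deposited counts 8 of the intervals lie below 0, and after correction the interval of Hes1 still lies well below 0 (log2 fold change −0.73) while Notch1, Notch3 and Notch4 lie within 0.05 of 0.

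The 7 genes Notch1, Notch2, Notch3, Notch4, Jag2, Dll1 and Dll4 are overlapped by other annotated genes, and 5 of these share exon bases with the neighbour. The largest opposite-strand share was in Dll1, where 867 of 4219 exon bases are also exons of A930024N18Rik, listed at up to 3.35 CPM. Whether the counting used strand is not given in the sources used here, so those reads may not be told apart. None of the overlapping genes was above 16.4 CPM in any library, the level reached by Gm42819 inside Notch2.

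Levels can be set beside each other per kilobase of exon. In WT, Notch2 led with 35.3 ± 1.49 CPM per kilobase (SD, n = 3), above all others in each sample. Jag2 (20.2 ± 1.75), Notch3 (18.7 ± 1.40), Jag1 (17.6 ± 2.20), Hes1 (15.5 ± 1.72), Notch1 (13.5 ± 2.34) and Hey1 (9.90 ± 2.87 CPM per kilobase) followed, and each overlapped the next in this order. Dll1 (4.49 ± 0.46), Notch4 (3.48 ± 0.35) and Dll4 (3.40 ± 0.58 CPM per kilobase) were lowest, Dll1 above Notch4 in every sample and Notch4 overlapping Dll4. Per kilobase, Notch2 lay above 97.0% of all tested genes in WT and Dll4 above 62.4%. In Mmp13-/- pulp Notch2 was again first with 27.7 ± 2.06 CPM per kilobase, followed by Jag1 (12.0 ± 1.80), Hey1 (8.99 ± 2.38), Notch3 (8.63 ± 0.53) and Jag2 (7.19 ± 0.54). Jag2, which came next to Notch2 in WT, thus lay behind Jag1 in every Mmp13-/- sample.

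Shares within a sample do not depend on how libraries are scaled, so the make-up of receptors, ligands and targets was compared as well, as each gene's share of the summed counts per kilobase of its role. Notch2 made up 52.7%, 48.5% and 48.2% of the receptors in WT and 61.3%, 64.9% and 60.4% in Mmp13-/-. Notch3 made up 25.9%, 26.5% and 26.6% in WT and 19.7%, 18.5% and 20.0% in Mmp13-/-. Both shifts, 12.4 points up for Notch2 and −6.93 points for Notch3, separated the genotypes. The shares of Notch1, 19.0% and 14.9% on average, and of Notch4, 4.89% and 3.47%, overlapped.

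Jag2 was the leading ligand in 2 of the 3 WT samples with 45.0% and 46.6%, and had 40.9% in WT sample 5, while Jag1 led in every Mmp13-/- sample. Jag2 held 29.3%, 30.0% and 30.3% there, and Jag1 held 35.6%, 35.9% and 44.2% in WT and 52.4%, 50.0% and 46.7% in Mmp13-/-. Hes1 made up 51.7%, 61.3% and 70.9% of the 2 targets in WT and 44.1%, 36.7% and 49.9% in Mmp13-/-. It was therefore above Hey1 in each WT sample, with Hes1 to Hey1 ratios of 1.07, 1.59 and 2.43, and below it in each Mmp13-/- sample, with ratios of 0.790, 0.580 and 0.995.

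The share of 6 of the 10 genes, Notch2, Notch3, Jag1, Jag2, Hes1 and Hey1, thus did not overlap between genotypes, each with an exact two-sided permutation p of 0.1, the smallest that 3 against 3 samples can give. The levels, not shares, of 29.1% of all tested genes lay wholly lower and of 31.8% wholly higher. Shares within a role have no matching background here, so 6 of 10 is not read as unusual. Without Mmp13-/- 6 the share of Notch4 did not overlap either. Hes1 and Hey1 are 1 measurement, since their shares add up to the whole. With GC content and background corrected, the shares of Notch2, Notch3, Hes1 and Hey1 stayed apart (shifts of 6.54, −2.84, −20.4 and 20.4 points), and those of Jag1 and Jag2 overlapped (−2.09 and −1.61 points, exact permutation p = 0.7 and 0.4). Jag1 then led Jag2 in every WT sample too, with 41.1%, 44.2% and 51.2% against 39.5%, 38.7% and 34.6%, so the change of leading ligand was not seen after correction.

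**Figure D3:**
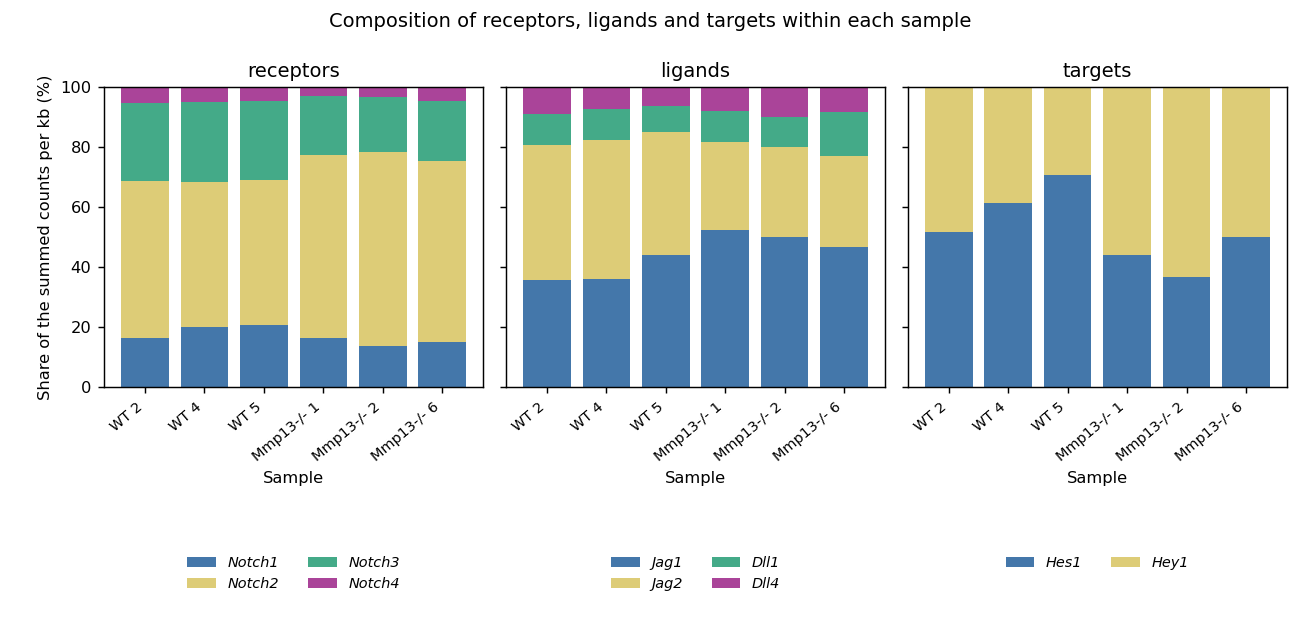
Stacked bars of each gene's share, in percent of the summed counts per kilobase of its role, in each of the 6 samples (receptors left, ligands middle, targets right). Notch2 takes 48.2% to 52.7% of the receptors in WT and 60.4% to 64.9% in Mmp13-/-, and Hes1 takes 51.7% to 70.9% of the targets in WT and 36.7% to 49.9% in Mmp13-/-.

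The rest of the pathway was read from 10 lists ordered by step, which hold 62 further genes, 61 of them tested. On the deposited counts 32 of the 61 passed as lower and 13 as higher at any fold (24.3% and 27.3% of all tested genes), and over 2-fold 14 were lower and 4 higher (9.68% and 20.4% of all tested genes). Their median log2 fold change was −0.43, against 0.10 for all genes. After GC correction 8 passed as lower and 14 as higher (9.33% and 26.7% of all tested genes), with a median of 0.07, and 2 were over 2-fold, Dll3 and Dtx1, both higher (17.9% of all tested genes). Without Mmp13-/- 6, 12 were lower and 5 higher over 2-fold before the correction (9.32% and 19.7% of all tested genes), and 31 and 11 at any fold (23.8% and 27.5%). The counts of the single steps below are at any fold and read against the same shares.

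Genes that prepare the ligand for pulling on the receptor were lower in 5 of 6 at any fold, and in 1 of 6 after GC correction. The ubiquitin ligase Neurl1a fell by 1.96 on the log2 scale (adjusted p = 7.86e-05), from 86.4 to 93.0 CPM in WT to 17.1 to 26.5 CPM in Mmp13-/-, and it held after GC correction with a fall of 0.70 (adjusted p = 0.0044). The ubiquitin ligase Mib2 and the endocytic adaptor Epn1 fell by 1.35 and 1.50 (adjusted p = 9.68e-05 and 8.41e-05), and after GC correction their log2 fold changes of −0.13 and −0.24 did not pass (adjusted p = 0.382 and 0.0525). Mib1, the main ligase of the list by level with 156 to 174 CPM in WT, had a log2 fold change of 0.09 (adjusted p = 0.683). Among the 3 non-canonical ligands Dner fell by 1.05 (adjusted p = 0.00124; after GC correction −0.46, adjusted p = 0.126).

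Of 5 genes that add sugars to the receptor, 4 were lower and 1 was higher at any fold, and after GC correction 0 and 1. The O-fucosyltransferase Pofut1, the most abundant, fell by 0.60 (adjusted p = 0.00656), and the fringe enzyme Rfng fell by 1.43 (adjusted p = 0.000154), neither of which held after GC correction (adjusted p = 0.553 and 0.0541). Of 10 genes for receptor cleavage, 3 were lower and 4 higher, and after GC correction 1 and 5. Furin, the convertase that cuts the receptor during its maturation, fell by 1.79 (adjusted p = 5.21e-05), from 185 to 222 CPM in WT to 55.7 to 59.0 CPM in Mmp13-/-. That fall remained 0.90 after GC correction (adjusted p = 0.000729), and Furin cuts many other proproteins as well. Aph1b, a subunit of gamma-secretase, rose by 1.06 (adjusted p = 0.00101) and by 0.76 after correction (adjusted p = 0.00549).

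In the nucleus, 6 of 10 activator genes were lower and 1 was higher, and after GC correction 2 and 1. The acetyltransferase Crebbp, the most abundant of them, fell by 0.67 (adjusted p = 0.00721; after correction −0.13, adjusted p = 0.404), and Snw1, a splicing factor that also binds the RBPJ complex, rose by 1.17 (adjusted p = 0.000659) and by 0.74 after correction (adjusted p = 0.00299). Of 13 co-repressors 7 were lower and 4 higher, and after GC correction 2 and 4. Of the 5 called lower over 2-fold, 4 are named here. Tle3 fell by 1.01 and by 0.34 (adjusted p = 0.000419 and 0.0272). Spen, Tle2 and Ctbp1 fell by 1.09, 1.28 and 1.18 (adjusted p = 0.000535, 0.00136 and 0.000881) and did not pass after correction. The RBPJ partner Cir1 rose by 1.14 (adjusted p = 0.00221; 0.91 after correction, adjusted p = 0.0166), and Ncor1, the most abundant co-repressor, did not pass (−0.17, adjusted p = 0.406).

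Of 9 negative regulators 4 were lower and 2 higher, and after GC correction 2 and 2. Numbl, related to the Notch inhibitor Numb, fell by 1.24 (adjusted p = 0.000143), and Dtx3 of the Deltex family by 1.56 (adjusted p = 0.000103), and both held after correction with falls of 0.47 and 0.49 (adjusted p = 0.00927 and 0.00759). Dtx1 stood at 2.30 to 4.16 CPM in WT and 2.42 to 5.41 CPM in Mmp13-/-, overlapped, and passed over 2-fold after GC correction alone (log2 fold change 1.49, adjusted p = 0.0288), so it was named after its value was seen. That call over 2-fold was lost when Mmp13-/- 6 was left out of the corrected fit. Dtx1 also lies below the mean log2 CPM of 3 above which the correction was fitted. Beside Hes1 and Hey1 the list of targets held Nrarp, a feedback inhibitor of Notch, which fell by 1.03 (adjusted p = 0.00967; −0.24 after correction, adjusted p = 0.525). Of the 7 targets Hes5 was too low to be tested, with at most 0.468 CPM in any library. Beside Hes1, no target passed in either direction after GC correction.

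Dll3, a Delta-like protein that does not activate receptors on other cells, was the 1 canonical ligand that rose. WT samples held 0, 2.31 and 3.50 estimated counts of it and Mmp13-/- samples 10.9, 15.4 and 36.4 (adjusted p = 0.0126), and the background rate alone would give 34.9% to 42.7% of its Mmp13-/- counts. The call was lost without WT sample 4, and after background subtraction Dll3 was too low to be tested. No fold is given at these counts.

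**Figure D4:**
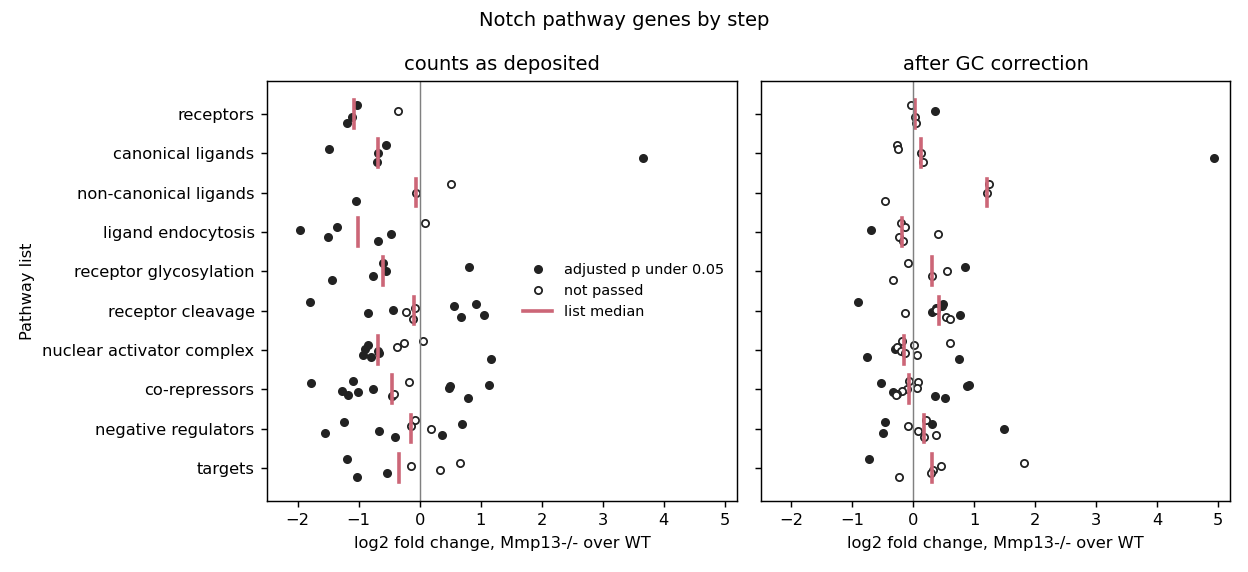
Log2 fold change of each tested Notch pathway gene, Mmp13-/- over WT, by step of the pathway, on the deposited counts (left) and after GC correction (right), with filled points for an adjusted p under 0.05, open points for genes that did not pass and a red line at the median of each list. The medians lie below 0 on the left, from −1.07 in the receptors to −0.06 in the non-canonical ligands, and on both sides of 0 on the right.

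**Figure D5:**
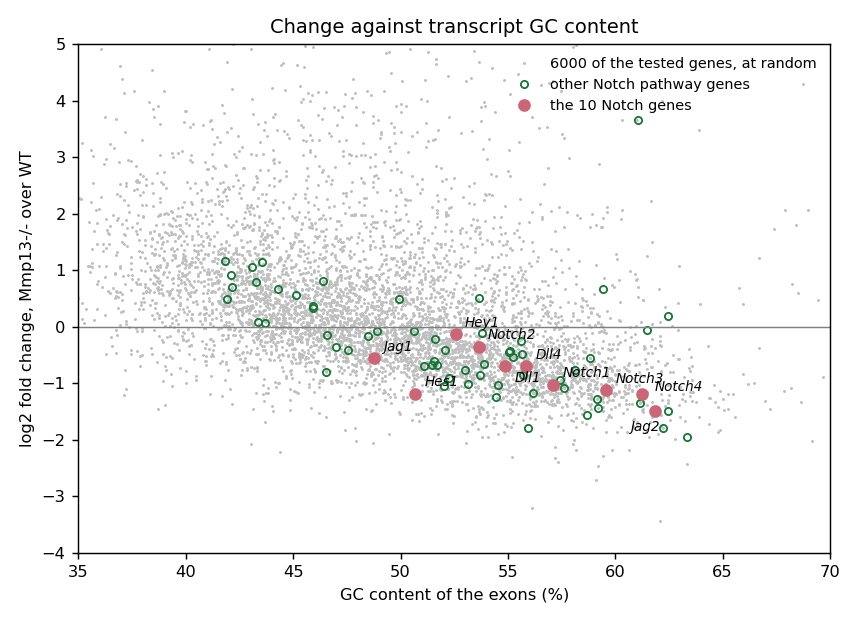
Log2 fold change, Mmp13-/- over WT, against the GC content of the exons of the longest transcript in percent, for 6000 randomly drawn tested genes (grey), other Notch pathway genes (green rings) and the 10 Notch genes (red). Both Notch sets slope down with the grey points, from Hey1 at 52.6% GC to Jag2 at 61.9%, and Hes1, at 50.7% GC, lies lower than Jag1 (48.8%) and Hey1 (52.6%) on either side of it.

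Spearman's rho of change against GC content was −0.68 across the 10 Notch genes and −0.64 across the 61 other pathway genes. The points share the same libraries, so no p is given. Jag2 and Notch4, the richest in GC with 61.9% and 61.2%, were the furthest down with Hes1, and Hes1 had 50.7% GC.

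Markers of vessel cell types, in which Notch genes are known, were read beside the 10 genes. Counts of markers are at any fold, where 24.3% of all tested genes passed as lower and 27.3% as higher, and after GC correction 9.33% and 26.7%. Of 14 endothelial markers 9 were lower and 1 higher, and their summed level was 647 to 739 CPM in WT and 413 to 564 CPM in Mmp13-/-. The most abundant were Vwf, with a log2 fold change of −0.21 (adjusted p = 0.331), and Flt1, which fell by 0.61 (adjusted p = 0.0108). After GC correction none of the 14 was lower and 4 were higher. Of 5 arterial markers 3 were lower and 1 higher, and after GC correction 1 and 1, led by Efnb2, which fell by 0.99 (adjusted p = 0.00243) and by 0.57 after correction (adjusted p = 0.0135). Sox17 came next in level and fell by 0.84 (adjusted p = 0.00603; −0.21 after correction, adjusted p = 0.466). Their sum was 96.7 to 128 CPM in WT and 51.5 to 70.1 CPM in Mmp13-/-, and Bmx, at 0.701 to 1.51 CPM in WT, was near 0. Of 10 mural markers 5 were lower and 3 higher, and after GC correction 2 and 4. They were led by Des and Pdgfrb, which fell by 1.96 and 0.83 (adjusted p = 0.000278 and 0.00261), and after correction had log2 fold changes of −1.05 and −0.02 (adjusted p = 0.00215 and 0.913). The mural sum was 2385 to 2646 CPM in WT and 845 to 1279 CPM in Mmp13-/-. Des is shared with skeletal muscle.

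The other marker lists describe the rest of the sample. Of 12 odontoblast and pulp markers 6 were lower and 2 higher, and after GC correction 2 and 3, and their sum, mostly Col1a1 and Col1a2, was 55943 to 62682 CPM in WT and 17629 to 23208 CPM in Mmp13-/-. The odontoblast marker Dspp, given above, did not go with that sum. Its ranges overlapped and reached higher in Mmp13-/-. Dental epithelial markers, led by Ambn and Krt14, overlapped in their sum, 5114 to 6424 CPM in WT and 5118 to 6660 CPM in Mmp13-/-, with 2 of 10 lower (Krt14 and Krt5) and 1 higher, and after GC correction 0 and 1. Skeletal muscle markers, led by Myh1 and Acta1, were lower in 9 of 10, and in 6 after GC correction, with a sum of 49711 to 57552 CPM in WT and 9354 to 21441 CPM in Mmp13-/-. Leukocyte markers, led by S100a9 and S100a8, were higher in 10 of 11, and in 11 after GC correction, with 71.0 to 120 CPM in WT and 507 to 1179 CPM in Mmp13-/-, and Cd3e was near 0 in WT (0.0688 to 0.313 CPM). Erythroid markers, led by Hbb-bs and Hba-a1, were higher in 6 of 7, and in 7 after GC correction, with 895 to 1456 and 2114 to 3967 CPM. Schwann cell markers, led by Mbp, overlapped in their sum, 68.7 to 278 and 69.8 to 85.1 CPM, with 2 of 6 lower, and after GC correction 0 lower and 1 higher. Without Mmp13-/- 6, 34 of all 85 markers were lower and 26 higher, against 36 and 24 with it. The 10 Notch genes together stood at 1040 to 1157 CPM in WT and 605 to 708 CPM in Mmp13-/-, and the part of these cell types in their change was not tested.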

How the data were processed

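Gene expression in the pulp had been sequenced in 3 samples per genotype, grouped by the genotype in the labels, which the paper, not the labels, describes as independent. The estimated counts were made by the authors in Strand NGS and deposited in 1 table of 53342 genes, with normalized log2 values that the authors derived from them by size factors and centred on each gene's median. The submitters' processing notes name mm10 and DESeq, and the aligner and its settings are not given in the sources used here.

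After rounding, the test of edgeR 4.0.16 in R 4.3.3 was applied (quasi-likelihood test, TMM factors, filter on low counts by genotype, Benjamini-Hochberg adjustment over 24534 genes). A gene was called at an adjusted p under 0.05 and over 2-fold. Totals were 21561420 to 29980236 counts. Errors of means are SDs over samples, and standard errors and intervals of changes were derived from the edgeR test statistic.

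Exon lengths, GC content and positions came from GENCODE M21 (GRCm38), matched by Ensembl identifier for 99.8% of genes. Exon length was that of all exons of a gene merged, and GC content that of its longest transcript. GC correction was a loess fit per library with span 0.4 over genes whose mean log2 CPM was above 3, entered as offsets in the fit. Background was the rate per kilobase over 1728 odorant and vomeronasal receptor genes. Alternatives were other scalings and filters, DESeq2 1.42.0, limma 3.58.1 on the deposited log2 values, the study's procedure as far as stated, and each sample left out. GC correction without Mmp13-/- 6 was chosen after seeing the data. Fits were tested on simulated data without differences between libraries in GC trend or background. That test cannot show how well either correction removes them. The Notch genes and all lists were chosen with earlier results of these data known. Named beside the 10 genes were called pathway genes, the most abundant gene of each pathway list, and the 2 most abundant and the near-absent markers of each marker list. Some genes that meet these criteria are not reported here.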

Additional observations from a re-analysis of the deposited data

How the results depend on the processing

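No paired analysis was possible because the genotypes share only the number 2. Of 24534 tested genes 7381 were called. With no filter on low counts it was 14325 of 49715, and with at least 10 counts in every sample 4666 of 19564. DESeq2 called 11714 of 49686 and the study's procedure 16035 of 48613. GC correction without Mmp13-/- 6 called 4750 of 24934, and GC correction with background subtraction 3577 of 22756. Of the 10 Notch genes 5 were called over 2-fold, against 1 with upper-quartile factors (Jag2), 3 with at least 10 counts in every sample, 3 with background subtraction, and 0 with GC correction, alone, without Mmp13-/- 6 or with background subtraction. Called lower over 2-fold were 2375 of 24534 tested genes, and 1338 of 24534 with upper-quartile factors. The other filter gave 1660 of 19564 and background subtraction 1909 of 22756. GC correction gave 540 of 24534 alone, 668 of 24934 without Mmp13-/- 6 and 738 of 22756 with background subtraction. At any fold 8 passed, 5 with total counts alone and 2 under each of the 3 settings with GC correction. Lower at any fold were 5955 of 24534 tested genes, and 3065 with total counts alone. With GC correction 2290 were lower and 6540 higher. Without Mmp13-/- 6 as well, 2523 of 24934 were lower and 6097 higher, and with background subtraction as well, 2596 of 22756 and 4880. Of the 72 pathway genes 23 were called, 15 with upper-quartile factors, 2 with GC correction and 1 each when it was combined with background subtraction or run without Mmp13-/- 6. In either direction, 7205 of all tested genes were called with upper-quartile factors and 4927 with GC correction. Marker calls went from 38 to 25 with GC correction. Dropping 1 sample at a time gave 7146 to 8751 called genes in all, 4 to 5 Notch genes over 2-fold, 7 to 8 at any fold, 16 to 27 pathway genes, and 3 to 5 neighbours apart in the WT order.

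The log2 fold change of Notch2 turned to 0.35 with GC correction, 0.31 without Mmp13-/- 6 as well and 0.37 with background subtraction as well. Under GC correction alone and with background subtraction, Notch3 turned to 0.025 and 0.027, Dll1 to 0.13 and 0.086, and Dll4 to 0.17 and 0.096, Dll4 being at 0.17 without Mmp13-/- 6. Notch4 turned to 0.045 under GC correction alone. Hey1, which did not pass in any of these fits, turned to 0.052 with upper-quartile factors, 0.021 with total counts, 0.45 with GC correction, 0.58 without Mmp13-/- 6 as well and 0.45 with background subtraction as well, and lay between −0.40 and 0.071 when single samples were dropped. Notch2 passed as lower with DESeq2 (−0.39, adjusted p = 0.0131) and with the study's procedure (−0.41, q = 0.0121), and Jag1, Dll1 and Dll4 did not pass with total counts (adjusted p = 0.348, 0.106 and 0.13), nor Dll1 with upper-quartile factors (adjusted p = 0.0589). The share of Jag1 turned to −2.09 points with GC correction and background subtraction. Hes1 kept its direction and its call at any fold under every alternative run. The cause of these shifts was not tested. Sample size limits the exact tests, and the rarer genes, Notch4, Dll1 and Dll4, are those in which background reads weigh most.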
